A study of Mus musculus with 22 samples.

Results

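The genes described here are 37 genes of skeletal muscle contraction, calcium handling and energy supply, followed in spatial transcriptomes of the mouse mammary gland at 3 and 18 months of age. They were chosen by symbol from the 19465 genes of the spatial matrices, and all 37 are in the matrices. The choice was made with their difference between ages in these sections already known, so that difference is given as a description, with no test. Every section is from a virgin female of C57BL/6J, an inbred mouse strain, with no transgene or treatment named in the labels, and each age has 2 sections. Tissue was fixed, embedded in paraffin, cut and read on Visium CytAssist slides, in which probes to transcripts are captured at a grid of barcoded spots and counted as unique molecular identifiers (UMIs). Each spot covers a patch of tissue with RNA of several neighbouring cells. The labels list epithelial, stromal and immune cells of the gland and name no muscle. They do not say whether the sections of an age came from separate mice, so every p-value below measures the spread between these sections, which may be technical.

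Skeletal muscle fibres contract when myosin of the thick filament pulls on actin of the thin filament, within sarcomeres bounded by Z-discs. Calcium released from the sarcoplasmic reticulum binds troponin on the thin filament and opens it to myosin, and a calcium pump then returns the ion to the store. Fast and slow fibres use different genes for myosin, troponin and the pump, so the set of genes read tells which fibre type a piece of muscle holds. The mammary gland itself is made of ducts, fat and stroma. Sheets of skeletal muscle lie under the skin and on the body wall next to it.

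Sections held 29631590 to 40684354 UMIs at 3 months and 19085122 to 21155333 at 18 months. The median spot held 8041 and 6264 UMIs at 3 months against 1762 and 1077 at 18 months, over 4403, 4070, 6597 and 9745 spots. Spots rich in lymphoid genes held 1.73% and 3.72% of all UMIs at 3 months and 25.3% and 37.2% at 18 months. To show what a probe reads in tissue that should not express its gene, 15 genes of the eye and testis were followed beside the muscle genes. Their levels over whole sections lay between 0.688 and 8.32 CPM (UMIs per 1000000 UMIs of the section or of the set of spots named) in all sections, with medians of 1.87 and 1.86 at 3 months and 3.77 and 5.29 at 18 months. The highest eye or testis gene read 4.13, 3.34, 6.92 and 8.32 CPM in 3 months replicates 1 and 2 and 18 months replicates 1 and 2. A muscle gene within that range over a whole section cannot be told from the background of the assay by its sum alone, although it can be high in a small part of the section.

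The promoters of Ckm, Acta1, Myh4 and Myh7 are shown because they stand for what the sections held. Ckm, Acta1 and Myh4 were among the genes read most in the muscle of the 3-month sections, and Myh7, the slow myosin, was not read there at all. Each line is the 250 bases before the annotated start, 5′ to 3′ on the gene's strand, from RefSeq on GRCm38.p6, the build the deposited files call mm10. Capitals mark the E-box CANNTG, bound by the myogenic factors, the serum response element known as the CArG box, the MEF2 box and the MCAT element CATTCCT.
Ckm promoter, chr7:19410844-19411093, plus strand: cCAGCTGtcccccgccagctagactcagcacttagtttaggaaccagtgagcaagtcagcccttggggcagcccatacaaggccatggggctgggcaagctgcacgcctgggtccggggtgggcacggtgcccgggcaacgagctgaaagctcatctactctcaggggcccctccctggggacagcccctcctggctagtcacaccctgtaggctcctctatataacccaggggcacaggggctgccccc
Acta1 promoter, chr8:123894776-123895025, minus strand: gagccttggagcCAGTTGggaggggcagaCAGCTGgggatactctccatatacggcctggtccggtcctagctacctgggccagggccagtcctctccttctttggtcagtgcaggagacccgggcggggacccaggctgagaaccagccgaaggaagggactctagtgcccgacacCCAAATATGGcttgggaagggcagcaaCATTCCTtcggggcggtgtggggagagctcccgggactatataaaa
Myh4 promoter, chr11:67237562-67237811, plus strand: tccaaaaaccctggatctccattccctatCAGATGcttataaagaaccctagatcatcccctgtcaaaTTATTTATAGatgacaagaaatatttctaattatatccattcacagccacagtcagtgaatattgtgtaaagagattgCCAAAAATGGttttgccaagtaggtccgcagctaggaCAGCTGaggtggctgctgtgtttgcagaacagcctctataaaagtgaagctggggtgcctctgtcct
Myh7 promoter, chr14:54994550-54994799, minus strand, at the downstream of its annotated starts: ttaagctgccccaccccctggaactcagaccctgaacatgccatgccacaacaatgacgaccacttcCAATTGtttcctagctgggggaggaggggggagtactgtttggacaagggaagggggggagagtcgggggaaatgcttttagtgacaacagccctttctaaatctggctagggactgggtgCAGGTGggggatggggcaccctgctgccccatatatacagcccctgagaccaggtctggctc

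Of the 37 genes, 31 had such a window. The E-box core CAGCTG, read on both strands and a special case of CANNTG, was in 16 of the 31 (51.6%) and in 14.7% of the 27025 genes with a window. Any CANNTG was in 27 (87.1%) against 69.3% of genes. The CArG box was in 5 (16.1%) against 1.62% of genes, namely Myh4, Myl3, Acta1, Myom1 and Ldb3, and the MEF2 box in 5 (16.1%) against 3.42%. CATTCCT was in 4 (12.9%) against 5.19%. Ckm carried CAGCTG at the far end of its window, Acta1 carried CAGCTG, a CArG box and CATTCCT, and Myh4 carried CAGCTG, a CArG box and a MEF2 box. The window of Myh7 held CANNTG matches other than CAGCTG. A match describes the letters of the window and does not show a bound site.

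At 3 months the muscle genes were read from small, bright patches near an edge of the tissue. A spot was counted as muscle where Acta1, Tnnt3, Tnni2, Tnnc2 and Mylpf together gave 10 UMIs or more and no less than 1% of the total. This gave 66 spots in replicate 1, all in 1 connected group, and 75 spots in replicate 2, in groups of 42 and 33 spots. They are 1.50% and 1.84% of the spots of their sections and held 84.7% and 89.9% of all UMIs of the 37 genes. Inside them the 37 genes made up 18.6% and 25.6% of every UMI read. The 32 genes that did not define the spots read 115264 and 160278 CPM there. In the brightest spots 8036 and 7244 UMIs came from these genes. The patches lay a median of 2 grid steps from the nearest grid position without tissue and at most 5, while the median over all spots was 6 and 5 steps. Such a position can lie outside the tissue or in a gap within it.

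At 18 months no spot met the definition in either section, which allows up to 0.0455% and 0.0308% of spots by counting error alone. This limit takes spots as independent, while the muscle spots at 3 months lay in connected groups. It does not cover a patch missed by the cut. The most UMIs of the 5 defining genes found in 1 spot was 7 and 8, against 3262 and 2871 at 3 months. Depth differs between the ages, so spots were also thinned to 500 UMIs each, leaving out 32, 113, 364 and 2071 shallower spots in the order 3 months replicates 1 and 2, then 18 months replicates 1 and 2. For thinned spots the limit of 10 UMIs was lowered to 3, with the 1% kept. The thinned sections then gave 66, 76, 0 and 0 muscle spots. Spots with any UMI of the 5 defining genes were then 4.12%, 5.61%, 2.23% and 1.93%, against 23.8%, 27.2%, 11.4% and 6.01% unthinned. For the 15 eye and testis genes the thinned shares were 1.81%, 1.77%, 2.01% and 1.81%, and 20.1%, 17.4%, 10.2% and 6.83% unthinned. At equal depth the shares of spots in the old sections were close for both sets. The sets have 5 and 15 genes, so like shares do not mean like levels per gene. Over the whole old sections the 5 defining genes summed to 48.4 and 40.9 CPM, and the 15 eye and testis genes to 61.2 and 78.1. A lack of muscle in the piece of tissue cut, fewer fibres and less RNA per fibre cannot be told apart in these sections.

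**Figure D1:**
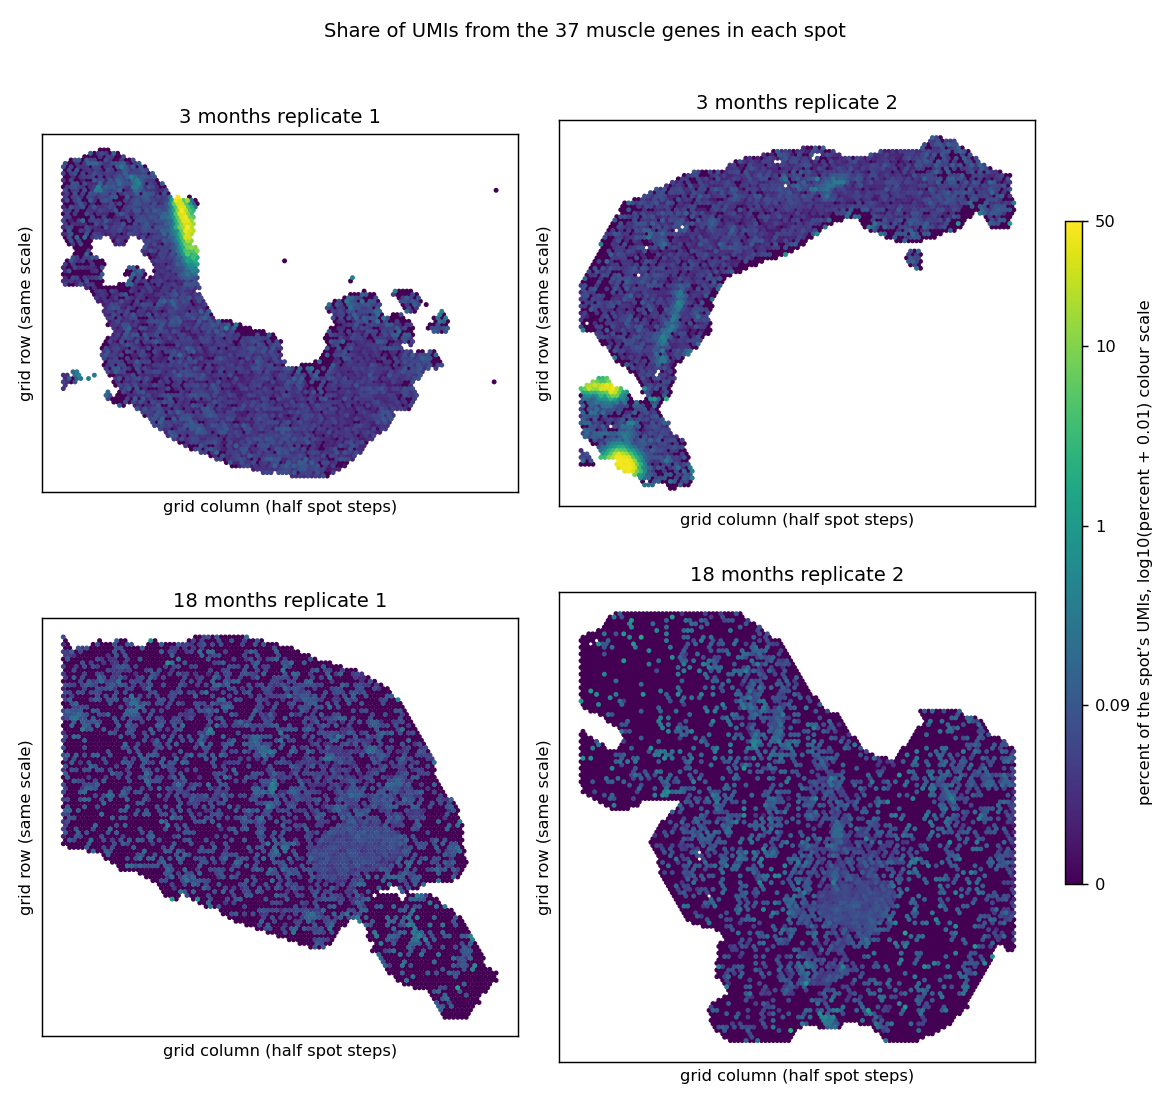
Each dot is a spot at its place on the grid, in the 4 sections, coloured by the percent of its UMIs that came from the 37 muscle genes, on a log10 scale after adding 0.01. The bright patches are the 66 and 75 muscle spots of the 3-month sections, and neither 18-month section has such a patch.

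Summed over the 37 genes, sections held 2811 and 4182 CPM at 3 months against 418 and 469 at 18 months. The edgeR fit (a quasi-likelihood test on counts summed per section, with Benjamini-Hochberg adjusted p-values) over all genes gave 25 of the 36 genes it tested an adjusted p under 0.05 in the lower direction and 2 in the higher direction, Myh7 and Tnni1. Over all genes 26.7% were called lower and 35.5% higher. The ages did not overlap for 31 of the 36, lower in 25 and higher in 6, where 85.1% of all genes did not overlap. Because this contrast chose the genes, nothing is read from these counts. The median log2 difference of the 36, 18 over 3 months, was -2.0, and 0.11 over all genes. These log2 values carry edgeR's TMM scaling, while the levels below are plain CPM of a section. Where 4 values stand in a row, they are 3 months replicates 1 and 2 and then 18 months replicates 1 and 2. Without TMM all log2 values shift up by 0.50.

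The thick filament is built of myosin heavy chains, their light chains and myosin-binding protein C. Myh4, the fast IIb heavy chain, stood at 438 and 593 CPM in the 3-month sections and 2.72 and 3.73 in the 18-month sections, a log2 difference of -7.82 ± 0.28 (SE, n = 2 sections per age). Both 3-month sections were high, and both 18-month values fall inside the eye and testis range. Mylpf, the fast regulatory light chain, went with it at 211 and 264 against 6.92 and 7.52. Mybpc2, the fast form of myosin-binding protein C, read 42.0 and 53.7 against 5.82 and 9.12. Myl1, the fast essential light chain, kept much more, at 119 and 159 against 46.2 and 47.9, far above the eye and testis genes at both ages.

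The other thick-filament genes were low over the whole of every section. Myh1 and Myh2, the IIx and IIa heavy chains, read 2.63 and 1.23 in 3 months replicate 1 but 11.9 and 6.38 in replicate 2, with 4.45 and 6.00 for Myh1 and 2.15 and 3.50 for Myh2 at 18 months. The 2 young sections thus lay on either side of the old ones for these genes. Mybpc1, the slow form, had the same order at 3.00, 12.96, 4.03 and 4.25. Without 3 months replicate 2 the log2 difference of Myh1 moved from -0.96 to 0.50, that of Myh2 from -0.87 to 0.71 and that of Mybpc1 from -1.43 to -0.02. Myh7, Myl2 and Myl3, the heavy and light chains of slow fibres and heart, held 10 to 76 UMIs per section except Myl3 at 18 months with 2 and 4. Myl3 was too rare for the fit.

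On the thin filament, Acta1, the skeletal alpha-actin, read 427 and 657 CPM at 3 months against 22.5 and 12.3 at 18 months, a log2 difference of -5.44 ± 0.40 (SE, n = 2 sections per age). Both old sections stayed above all 15 eye and testis genes. The fast troponins were lower together. Tnnc2, the calcium-binding subunit, read 188 and 294 against 7.75 and 6.996. Tnnt3, the subunit that binds tropomyosin, read 111 and 186 against 6.13 and 7.99. Tnni2, the inhibitory subunit, read 36.2 and 67.7 against 5.03 and 6.15. In the old sections Tnnt3 and Tnni2 lay within the range of the eye and testis genes, and Tnnc2 exceeded the highest of them (6.92) in replicate 1. Neb, the giant ruler of the thin filament, read 7.67 and 14.1 against 3.98 and 5.34. Tpm2, beta-tropomyosin, differed least among the abundant thin-filament genes, at 152 and 253 against 109 and 139.

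The slow troponins were within or under the range of the eye and testis genes in every section. Tnnt1 held 23, 31, 32 and 21 UMIs and Tnnc1 held 76, 41, 44 and 65. Tnni1, the slow inhibitory subunit, held 5 and 2 UMIs at 3 months and 8 and 62 at 18 months. Its log2 difference of 3.55 ± 0.93 (SE, n = 2 sections per age) was 1.63 without 18 months replicate 2.

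Among Z-disc and M-band genes, Ttn, the molecular spring titin, read 63.9 and 108 CPM at 3 months against 7.70 and 8.84 at 18 months. Actn3, the alpha-actinin of fast fibres, read 42.6 and 64.6 against 4.77 and 6.48. Ldb3, a Z-disc adaptor, read 16.6 and 29.6 against 6.71 and 6.996. The M-band genes Myom1 and Myom2 differed less, with Myom1 at 14.6 and 21.9 against 9.06 and 11.3 and Myom2 at 6.73 and 12.7 against 4.82 and 6.33. Des, the intermediate filament desmin of all muscle types, read 76.9 and 94.9 against 67.4 and 72.0, the smallest drop among the genes called lower. Actn2, the other alpha-actinin, lay at 1.57 and 3.75 against 3.98 and 4.73. In 3 months replicate 2, 80 of its 111 UMIs were in the muscle spots, and in replicate 1 only 5 of 64.

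The widest gap of the 37 was that of a calcium gene. Atp2a1, the calcium pump SERCA1 of fast fibres, had 5357 and 6651 UMIs at 3 months and 11 and 4 at 18 months. In CPM this is 132 and 224 against 0.576 and 0.189, a log2 difference of -9.38 ± 0.45 (SE, n = 2 sections per age). Without 18 months replicate 1 it was -10.44. Casq1, the calcium-binding protein of the store in fast fibres, had 1157 and 1480 UMIs against 4 and 7, and Pvalb, the soluble calcium buffer parvalbumin, 7455 and 7814 against 41 and 66. Casq1 and Atp2a1 lay under every eye and testis gene at 18 months. Ryr1, the release channel, read 15.8 and 24.3 CPM against 4.72 and 4.11. Cacna1s, its voltage sensor, read 2.48, 2.36, 3.72 and 4.59 over the whole sections, within the range of the eye and testis genes. Inside the muscle spots it stood out, at 63.4 and 36.7 against at most 5.77 and 4.59 for any eye or testis gene.

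Of the genes of energy supply, Ckm, muscle creatine kinase, read 324 and 447 CPM against 3.88 and 5.01, a log2 difference of -6.94 ± 0.26 (SE, n = 2 sections per age). Pygm, muscle glycogen phosphorylase, read 48.4 and 74.3 against 7.18 and 7.89. Pgam2, muscle phosphoglycerate mutase, read 21.7 and 38.6 against 3.82 and 3.92. Ampd1, the muscle AMP deaminase, read 5.26 and 8.34 against 1.94 and 3.07. Eno3, the muscle enolase, kept a level above background at 46.5 and 44.2 after 80.2 and 127. Mb, the oxygen store myoglobin of slow and oxidative fibres, read 2.48, 5.50, 2.72 and 3.36 over the whole sections. In 3 months replicate 2, 113 of its 163 UMIs were in the muscle spots, at 259 CPM, and in replicate 1 only 6 of 101.

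**Figure D2:**
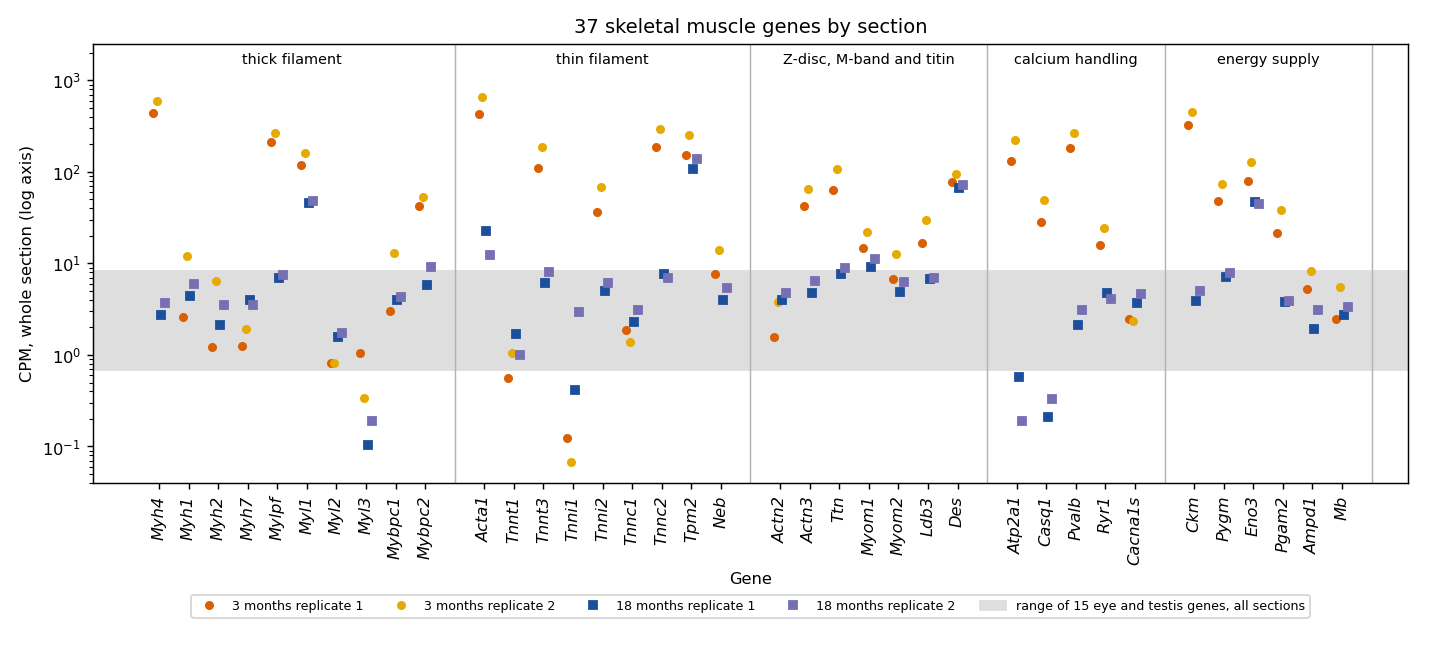
CPM of the whole section on a log axis for each of the 37 genes, grouped by role, with 1 point per section and a grey band from 0.688 to 8.32 for the 15 eye and testis genes. Most fast-fibre genes lie above the band at 3 months and in it at 18 months, while Myl1, Tpm2, Des, Eno3, Acta1 and Myom1 stay above it.

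The muscle spots of the 3-month sections held genes of fast fibres. Of the 5 genes that define these spots 4 are themselves fast genes (Tnnt3, Tnni2, Tnnc2 and Mylpf), so the definition favours fast muscle, a patch of slow muscle could be missed, and the low slow share inside is a description of the spots so chosen. The slow share was taken over 6 matched pairs. The slow genes were Myh7, Myl2, Myl3, Tnnt1, Tnni1 and Tnnc1, and their fast partners Myh4, Mylpf, Myl1, Tnnt3, Tnni2 and Tnnc2. In the muscle spots of replicate 1 no UMI of these slow genes was found, beside 40012 of the fast partners. In replicate 2 there were 14 beside 43514, a slow share of 0.0322% (95% exact Clopper-Pearson interval 0.0176 to 0.0540%). Those 14 UMIs were 9 of Myl2, 3 of Tnnt1 and 2 of Tnnc1. Myh7, Myl3 and Tnni1 had none in either section, which allows up to 5.77 and 6.88 CPM in the muscle spots. Mybpc1, the slow form of myosin-binding protein C, was not in these pairs. It held 41 and 319 UMIs in the muscle spots of replicates 1 and 2, beside 1548 and 1507 of Mybpc2, the fast form. Over all spots the slow share was 0.512% and 0.355% at 3 months and 11.9% and 13.5% at 18 months. Away from the muscle spots at 3 months it was already 6.95% and 6.84%. Most of the fast UMIs behind these last shares were of Myl1, which was also read far from muscle spots. Myl1 gave 882 of 1427 and 1013 of 1698 at 18 months. Away from the muscle spots at 3 months it gave 2195 of 2998 and 1537 of 2029. Away from the muscle spots each of the 6 slow genes lay in or below the range of the eye and testis genes in every section. Intervals cover counting error only, and the sources used here do not give the number of probes per gene, so a share of UMIs is no ratio of transcripts.

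The 3 connected groups of muscle spots did not hold the same fast genes. In replicate 1, Myh4 gave 16982 of 16984 heavy-chain UMIs (99.99%), and Myh1 and Myh2 gave 1 each. In the larger group of replicate 2, Myh4 gave 98.6% and Myh1 1.42% (interval 1.23 to 1.62%), with no UMI of Myh2. In the smaller group Myh4 gave 92.8%, Myh1 1.98% (1.49 to 2.57%) and Myh2 5.23% (4.43 to 6.13%). Myh1, Myh2 and Myh4 are closely related genes that lie close together on chromosome 11, and UMIs shared between them would change these shares. Such sharing was not tested. Beside 16982 UMIs of Myh4 in replicate 1 and 14684 in the larger group of replicate 2, Myh2 had 1 and 0 and Myh1 had 1 and 211.

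Mb and Actn2 were also highest in the smaller group. Mb read 1021 CPM there against 11.5 in replicate 1 and 58.0 in the larger group, and Actn2 read 505 against 9.61 and 98.6. Mybpc1 was high in both groups of replicate 2, at 868 and 696, against 78.8 in replicate 1. Pvalb went the other way, at 7259 against 13626 and 20271. The smaller group also held Mbp, a myelin gene of nerve, at 2196 against 40.4 and 14.5. The part of nerve in these values was not tested. Adipoq, made by fat cells, read 703 there against 1884 and 2190, so it was read in all 3 groups. Beyond 10 steps from the muscle spots it read 3307 and 4124 in replicates 1 and 2. Whether its UMIs came from fat in the muscle spots or beside them was not tested. Each group is 1 patch of 1 section, so no test between them is possible.

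**Figure D3:**
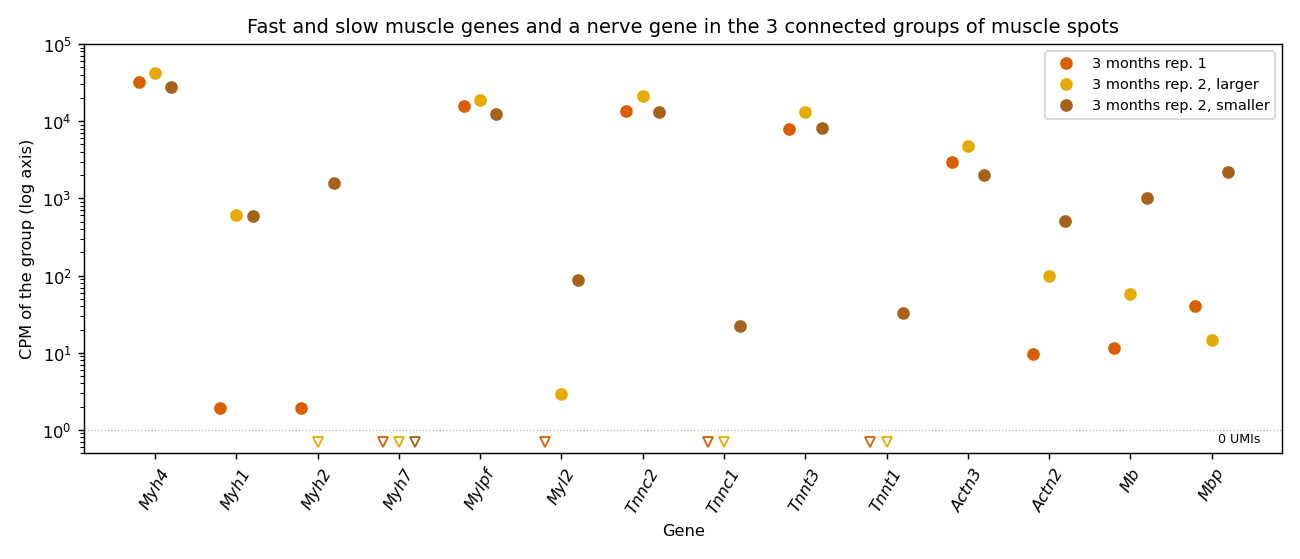
CPM of each connected group of muscle spots at 3 months, on a log axis, for fast and slow muscle genes and for the nerve gene Mbp, with open triangles for 0 UMIs. Myh4 is high in all 3 groups, whereas Myh2, Mb and Mbp are highest in the smaller group of replicate 2.

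Outside the muscle spots the levels were lower with each of the first steps. Spots outside are those that failed the cut on the 5 defining genes, so the fall from inside to 1 step is partly set by that cut. Ckm read 24173 and 29782 CPM inside, 1458 and 1161 at 1 step, 268 and 287 at 2 steps, 66.3 and 85.1 at 3 steps and 2.52 and 2.07 beyond 10 steps. The last values are at background. Tpm2, Des and Myl1 stayed above background instead. Tpm2 read 102 and 116 beyond 10 steps, Des 49.8 and 52.5, and Myl1 56.3 and 53.9. On the way Tpm2 was uneven in replicate 2, at 86.1 at 2 steps, 91.7 at 3 steps and 295 at 4 to 5 steps. Of the 37 genes, 18 had at least 75% of their UMIs inside the muscle spots in both young sections, among them the 5 that define these spots. For Tpm2 the share was 30.9% and 53.5%, for Des 33.2% and 44.4% and for Myom1 31.5% and 41.7%.

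**Figure D4:**
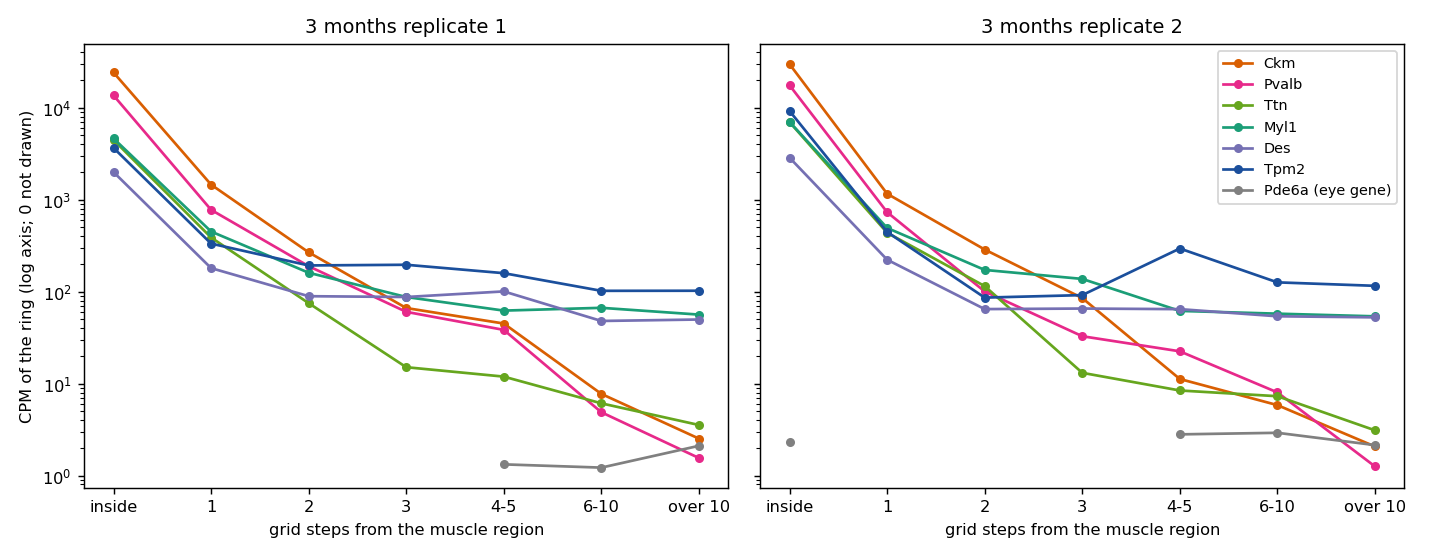
CPM on a log axis against the distance from the muscle spots in grid steps, for 6 muscle genes and the eye gene Pde6a, in each 3-month section. Ckm, Pvalb and Ttn drop to near Pde6a beyond 10 steps, while Myl1, Des and Tpm2 lie between 49.8 and 116 there.

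More than 5 steps from the muscle spots, the log2 differences between the ages lay between -1.73 and 3.48. The fit on these spots tested 35 of the genes and called 4 lower at 18 months, Atp2a1, Myh4, Myl1 and Myom1, and 17 higher, where 26.4% and 35.3% of all genes were called. The median log2 difference of the 35 was 0.47, beside 0.12 over all genes. By library size alone 1 was called lower and 25 higher, by DESeq2 7 were called higher, and 10 were called higher without 3 months replicate 1. Leaving out 18 months replicate 1 or 2 left 2 or 1 called lower. Ages did not overlap for 30 of the 35 (85.2% of all genes). Most of these genes lay at background there. Only 11, 11, 9 and 8 of the 37 exceeded the highest eye or testis gene in the 4 sections, and the same fit called 12 of the 15 eye and testis genes higher at 18 months. The background genes held a median of 16.7 and 14.6 UMIs per 1000 spots at 3 months and 10.9 and 11.5 at 18 months.

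What was left of the muscle genes at 18 months sat in different kinds of spots. Tpm2 followed spots rich in genes of smooth muscle and myoepithelium, the contractile cells of vessels and ducts. There it read 1439, 1530, 1045 and 1294 CPM in the sections, and 95.5, 95.7, 91.3 and 107 CPM in the other spots away from muscle. Myom1 was also higher there, at 159 and 169 against 8.89 and 10.2 at 3 months and 31.9 and 59.7 against 8.64 and 9.91 at 18 months. Des read 200 and 216 against 48.9 and 50.2 at 3 months and 84.0 and 104 against 67.1 and 71.1 at 18 months.

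Eno3 and Des were higher in lymphoid-rich spots. At 18 months Eno3 read 119 and 84.1 CPM there, and 22.2 and 20.6 in the remaining spots. In the remaining spots at 3 months, away from muscle, it read 21.4 and 23.8. Des had the same form, at 130 and 111 in the lymphoid-rich spots of the old sections, 46.3 and 48.8 in their other spots and 49.0 and 50.1 in the other spots of the young. Outside muscle and lymphoid-rich spots, both genes were thus close between the ages. Eye and testis genes also read more in lymphoid-rich spots, with medians of 6.63 and 9.40 against 2.73 and 2.71 elsewhere at 18 months. Tpm2, Eno3 and Des exceeded the highest of them in the lymphoid-rich spots of both old sections. Of the 62 UMIs of Tnni1 in 18 months replicate 2, 93.5% were in lymphoid-rich spots, at 7.37 CPM, inside the range of the eye and testis genes there (1.78 to 17.5). They were not evenly spread, with all 62 in 29 spots and up to 8 in 1 spot. In 18 months replicate 1 its 8 UMIs lay in 8 spots. The range of sums thus does not cover its level in single spots of replicate 2.

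Acta1 and Myl1 showed the reverse. At 18 months Acta1 read 0.207 and 0.635 CPM in lymphoid-rich spots and 30.1 and 19.2 elsewhere, and at 3 months it had no UMI in lymphoid-rich spots against 11.6 and 27.0 in the others away from muscle. Myl1 read 7.67 and 14.2 against 59.3 and 67.8 at 18 months and 28.4 and 8.17 against 57.5 and 55.9 at 3 months. Both were read from non-lymphoid tissue at both ages, with no muscle spot near. In those spots the young and old sections overlapped for Acta1.

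**Figure D5:**
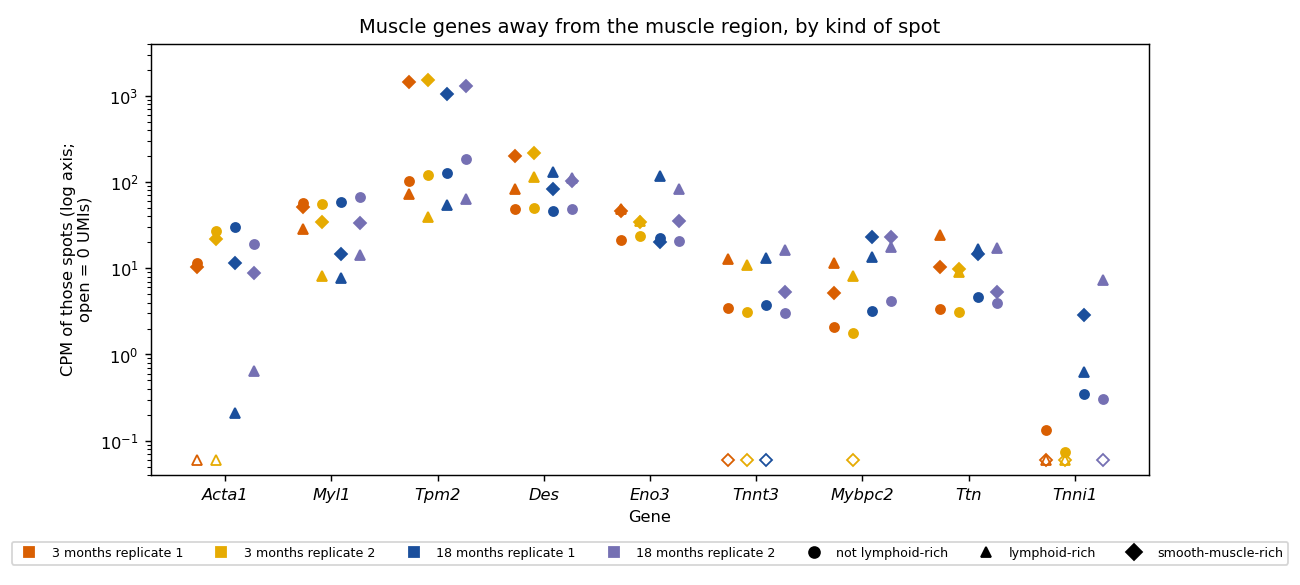
CPM on a log axis for 9 muscle genes away from the muscle spots, by section (colour) and by kind of spot (circle, not lymphoid-rich; triangle, lymphoid-rich; diamond, rich in smooth muscle and myoepithelial genes; open, 0 UMIs). Tpm2 is highest in the diamonds, Eno3 is highest at 18 months in the triangles, and Acta1 is near 0 in the triangles.

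Further muscle genes outside the 37 were tested, in lists that were also drawn up with earlier results of these data known, so their p-values are not independent of those results. In all 60 such genes in 4 lists were in the matrices, of which 59 were tested in the same edgeR fit over all spots. It called 21 lower (35.6%) and 13 higher (22.0%) at 18 months, beside 26.7% and 35.5% of all genes, with a median log2 difference of -0.27. By library size alone the counts were 10 and 22, and without lymphoid-rich spots 15 and 3. Away from the muscle spots 7 were lower (11.9%) and 29 higher (49.2%), beside 26.4% and 35.3% of all genes.

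Of 22 further sarcomere genes 9 were called lower (40.9%) and 3 higher (13.6%), beside 26.7% and 35.5% of all genes. Mybph, a myosin-binding protein, fell by a log2 difference of -4.26 ± 0.35 (SE, n = 2 sections per age, edgeR adjusted p = 0.00021), from 7.45 and 5.33 CPM to 0.210 and 0.709. Tcap, which caps titin at the Z-disc, fell from 15.6 and 46.6 to 2.36 and 3.64 (edgeR adjusted p = 0.00092). Myoz1, a Z-disc protein of fast fibres, fell from 31.1 and 39.3 to 4.03 and 4.44 (edgeR adjusted p = 4.2e-05). Of 15 further genes of calcium handling and the triad, where the surface membrane meets the store, 8 were lower (53.3%) and 1 higher (6.67%). Trdn, triadin, which anchors calsequestrin at the release channel, fell from 9.05 and 14.2 to 3.35 and 4.54 (edgeR adjusted p = 0.00078). Jph2, a junctophilin, and Hrc, a calcium-binding protein of the store, had log2 differences of -1.05 and -1.03 (edgeR adjusted p = 0.0024 and 0.0065), and Hrc missed the threshold by library size alone (adjusted p = 0.093). Away from the muscle spots Mybph, Tcap, Myoz1 and Jph2 did not pass, and Trdn and Hrc were higher, with log2 differences of 0.83 and 0.50 (edgeR adjusted p = 0.0074 and 0.030).

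Of 15 genes of the nerve-muscle junction and the fibre membrane 3 were called lower (20.0%) and 7 higher (46.7%), and of 7 genes of myogenic cells 1 was lower (14.3%) and 2 higher (28.6%). Over all genes more were called higher (35.5%) than lower (26.7%) too. Colq, the tail of acetylcholinesterase, read 1.50 and 2.26 CPM at 3 months against 6.08 and 8.51 at 18 months (log2 difference 1.47, edgeR adjusted p = 0.0017). Chrna1, the acetylcholine receptor subunit, read 1.43 and 1.65 against 3.72 and 4.49, Cav3, caveolin of muscle, 2.80 and 2.97 against 6.65 and 10.1, and Pax7, the factor of satellite cells, 2.80 and 2.46 against 7.13 and 8.13. Myog, myogenin, read 1.84 and 1.96 against 3.51 and 4.11. Most of these levels lie within the range of the eye and testis genes, of which 12 of 15 were called higher in the same fit. Above the highest of them were Pax7 in 18 months replicate 1 (6.92) and Colq and Cav3 in replicate 2 (8.32). Without lymphoid-rich spots Chrna1, Cav3, Pax7 and Myog no longer passed (edgeR adjusted p = 0.13, 0.16, 0.14 and 0.87), and Colq did (0.026).

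Other contractile tissue was followed by its own lists. Of 13 genes of smooth muscle and myoepithelium 4 were called lower (30.8%, near the 26.7% of all genes) and 1 higher (7.69%, beside 35.5%), 1 and 5 by library size alone and 0 and 6 without lymphoid-rich spots, where edgeR gave 1 lower at an unadjusted p under 0.05. Synpo2, which binds actin in smooth muscle, rose from 39.5 and 40.8 to 117 and 116 (edgeR adjusted p = 0.00058). Smtn, smoothelin, fell from 102 and 91.9 to 69.6 and 75.7 (edgeR adjusted p = 0.00095) and did not pass without lymphoid-rich spots (adjusted p = 0.084). All 6 heart genes listed were called higher, where 35.5% of all genes and 12 of the 15 eye and testis genes were. The 6 heart genes summed to 25.6, 23.9, 73.5 and 65.2 CPM. The highest mean of an age among them was 45.9 CPM, against 7.62 among the eye and testis genes called higher.

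Genes outside the 37 were ranked by the share of their UMIs inside the muscle spots of the 3-month sections, taking the lower of the 2 sections, among 16049 genes with at least 50 UMIs in each. Among the first 15 that are not among the 37 were Mybph, Myoz1, Cox6a2, Tcap, Trdn, Myot, Dusp13, Eef1a2, Sypl2, Mylk2, Trim63, Nrap, Mypn and Tmod4. Mybph had 94.4% and 91.8% of its UMIs there, Myoz1 88.2% and 92.4%, Cox6a2, a respiratory chain subunit of muscle and heart, 85.3% and 91.7%, and Tmod4, the last of them, 62.7% and 60.2%. The median gene had 0.958% and 0.993%. Likeness was measured over 2 sections only.

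The authors' deposited table of Moran's I gives a score per gene and section, with no position. The score is near 0 for a gene scattered at random and higher for one whose UMIs cluster in neighbouring spots. Its median over the 37 genes was 0.436 and 0.487 at 3 months and 0.0031 and 0.0021 at 18 months. In the authors' deposited table Ckm ranked first of 19322 genes in 3 months replicate 1, with a score of 0.803. Of the 37, 20 and 25 were among the first 100 genes of the young sections, and none were in the old ones. Most of the 37 lay at background at 18 months, in shallower spots. How far sparse counts alone lower the score was not tested. In the authors' deposited table Tpm2 had the highest scores of the 37 at 18 months, 0.177 and 0.118. In the same deposited table Tnni1 scored 0.0442 in 18 months replicate 2, rank 765 of 19320 genes, and -0.00065 in replicate 1. The score of Tnnc1, a slow gene, was -0.0037 in 3 months replicate 1.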

How the data were processed

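UMI counts per gene and spot were made by the authors with Space Ranger 2.0.0, per the file headers, on mm10, per the submitters' processing notes. The matrices hold spots under tissue only. The score is the Moran's I the authors deposited, for which the sources used here give no normalisation.

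Counts were summed per section, over all spots and over spots more than 5 grid steps from the muscle spots, and tested with edgeR 4.0.16 (quasi-likelihood, TMM, filterByExpr, Benjamini-Hochberg over all genes, threshold 0.05). The scripts were tested on simulated data. DESeq2 1.42.0, library size alone, no filter, left-out sections, spots of at least 500 UMIs and removal of lymphoid-rich spots (at least 3 UMIs and 0.3% from 10 lymphoid genes) were alternatives. Spots with at least 3 UMIs and 0.5% from 13 smooth muscle and myoepithelial genes were set apart, a limit chosen after seeing the data. The 37 genes and all lists were chosen with earlier results of these data known. Genes named outside the 37 are, per list, all that passed if 3 or fewer, otherwise the 3 with the largest log2 difference among those that passed and did not overlap. Python 3.11.15, numpy 2.4.6, pandas 2.3.3, scipy 1.17.1, matplotlib 3.10.9 and R 4.3.3 were used. Dissociated-cell and chromatin libraries were not used here. A few genes that these rules would name are not reported here.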

Additional observations from a re-analysis of the deposited data

How the results depend on the processing

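Every count here is of genes called lower or higher at 18 months. By library size alone, 5 of the 37 were called higher over all spots, and by DESeq2 1. Without lymphoid-rich spots 0 were, also at an unadjusted p under 0.05. Leaving out 1 section gave 25 to 29 lower and 1 to 3 higher. For the other muscle genes, library size alone gave 10 lower and 22 higher, DESeq2 7 higher, and removal of lymphoid-rich spots 3 higher, while leaving out 1 section gave 17 to 27 lower and 8 to 14 higher. For smooth muscle and myoepithelium the counts were 1 and 5 by library size alone and 0 and 6 without lymphoid-rich spots, and 2 to 4 lower and 1 higher with 1 section left out. Away from the muscle spots, library size alone gave 1 lower, a distance over 10 steps 2 lower, DESeq2 7 higher, and leaving out 1 section 1 to 5 lower and 10 to 13 higher. A section left alone in its age was assumed to vary like the others. The cause of these changes was not tested.

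With 13 fast genes the slow share was 0.368%, 0.248%, 9.59% and 10.3%, and in the muscle spots alone 0% and 0.0322%. With at least 20 UMIs and 3%, 3 months replicate 1 had 42 muscle spots. With at least 5 UMIs and 0.5%, each 18-month section had 1. Deviations from the mean of the age correlated at 0.038 between sections of the same number. With 2 sections per age this cannot decide whether the numbers pair them. A replicate block gave 28 lower and 2 higher of the 37 over all spots, and 5 and 18 away from muscle. It gave 27 and 15 of the other muscle genes and 4 and 1 of smooth muscle. Over all spots none of the called genes named here changed sign under these alternatives. For the fit away from the muscle spots, signs of single genes were not compared between alternatives. Myl3, Casq1 and Atp2a1, with at most 11 UMIs in an 18-month section, are limited by depth.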

Other observations

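The 66 barcodes of the muscle spots of 3 months replicate 1 all lay under tissue in the other sections too. In 18 months replicates 1 and 2 they held 3 and 1 UMIs of the 5 defining genes, 0.325% and 0.115% of those sections' UMIs of these genes, on 1.00% and 0.677% of their spots. In 3 months replicate 2 they held 24, or 0.0551%. The same barcode on another slide is not the same place in the tissue, so these values show how few muscle UMIs shared barcodes carry between libraries and nothing about where old muscle would lie. Of the 75 barcodes of the patches of 3 months replicate 2, 0 were under tissue in the 18-month sections.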
